A study of Rattus norvegicus with 192 samples.

Results

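Carbaryl was followed over 6 libraries of rat liver cells, 1 library at each of 0.4, 1.2, 3.7, 11.1, 33.3 and 100 µM, of 192 libraries in all. The libraries were chosen by the chemical named in their titles, and no measured value entered that choice. They were read against 8 libraries from cells that had only the solvent, DMSO replicates 2 to 9. DMSO replicate 1, which stands apart from the others, was left out by the rule that defines the series and was put back in an alternative. All cells were primary hepatocytes from male rats, grown on collagen and exposed for 24 h in 0.1% DMSO, so the solvent was common to every library and no genetic change was involved. RNA was measured by TempO-Seq, in which a pair of short detector oligonucleotides is joined on each target transcript, amplified and counted. Nothing in the labels ties a well to its own culture or animal. The p-values therefore rest on how much these libraries scatter, and that scatter may be only technical.

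Carbaryl is a naphthyl methylcarbamate insecticide that acts by blocking acetylcholinesterase. Liver esterases and cytochromes P450 break it down, and the naphthol released is joined to glucuronic acid or sulfate. It is known from work in cultured cells as an activator of the aryl hydrocarbon receptor (AhR), a cytosolic sensor of flat aromatic chemicals. Once bound, AhR leaves a complex with HSP90 and p23, pairs with ARNT in the nucleus and switches on genes led by Cyp1a1. CAR and PXR, further sensors in hepatocytes, raise the Cyp2b and Cyp3a enzymes, and NRF2 raises antioxidant enzymes.

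The carbaryl libraries held 4290939 to 6257595 counts and the DMSO libraries 2876741 to 8513985. Levels are given as CPM (a probe's counts scaled to a fixed library total) and compare libraries, not genes. All 6 carbaryl libraries lay on plate 2, as did DMSO replicates 4 to 6, while DMSO replicates 2 and 3 lay on plate 1 and 7 to 9 on plate 3. The 3 upper doses sat in the last wells of one row and the 3 lower doses in the first wells of the next, so dose and well position cannot be told apart. On log2 CPM the carbaryl libraries correlated with each other at 0.958 to 0.988. DMSO replicate 5 correlated with the other DMSO libraries at 0.899 to 0.945, against 0.972 to 0.988 among those others. On a scale where DMSO replicate 5 is 1 and the mean of replicates 4 and 6 is 0, the 3.7, 33.3 and 100 µM libraries scored 0.31, 0.14 and 0.23, and the other 3 scored -0.04 to 0.07. The 11 hepatocyte markers with a probe summed to 30219 to 38695 CPM in the carbaryl libraries and 28882 to 49864 CPM in DMSO, and the ranges overlapped. Alb (albumin) was above every DMSO library at every dose, and the other 10 were not. At 0.4 µM the median of Alb in 12 other chemicals on plate 2, 6033 CPM, was above every DMSO library too. No pair of libraries within a group differed by less than counting error (chi-square per degree of freedom at least 2.41).

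Of 9725 probes tested for a trend over the doses, 4 were called higher and 4 lower, which is 0.0411% each way. Calls here and below are at a Benjamini-Hochberg adjusted p under 0.05 in edgeR's quasi-likelihood test, with plate as a factor. The fitted change is printed as log2 at 100 µM with its SE. A further measure of the same fit is that 1091 probes had an unadjusted p under 0.05. The 4 that rose were Cyp1a1, Ppp1r3c, Rassf7 and Lpin2, and the 4 that fell were Plin2, Dgat2, Slc50a1 and Chdh. All 8 changed in the same direction when the 100 µM library was tested on its own. That test reuses this library and the same DMSO libraries, so it is no separate support for the trend.

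Cyp1a1 encodes the P450 that oxidises aromatic hydrocarbons and is the standard readout of AhR. It had 0, 1.15 and 3.40 CPM in the DMSO libraries (lowest, median and highest), and 3.74, 3.89, 5.75, 8.40, 20.1 and 46.1 CPM at 0.4, 1.2, 3.7, 11.1, 33.3 and 100 µM. These levels rest on 19, 18, 36, 42, 95 and 198 counts in the carbaryl libraries and on 0 to 18 counts in the DMSO libraries. Every carbaryl library was above every DMSO library, and each dose was above the one before it. At 0.4 and 1.2 µM the 12 other chemicals on the plate had up to 6.01 and 7.04 CPM, with medians of 3.22 and 2.76 CPM, so the carbaryl level there lay within theirs. The fitted rise was 4.93 ± 0.50 (adjusted p = 5.19e-04). It was called under all 23 alternatives to the fit, with values from 4.16 to 5.35. The lowest came from the carbaryl libraries alone, with no DMSO library in the fit (4.16 ± 0.33, adjusted p = 0.00363). At the 2 lowest doses the level was close to the highest DMSO library, and no single-library test called it below 33.3 µM. The call at 33.3 µM was itself lost without any one of DMSO replicates 2, 3, 4, 6, 7 or 8.

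**Figure D1:**
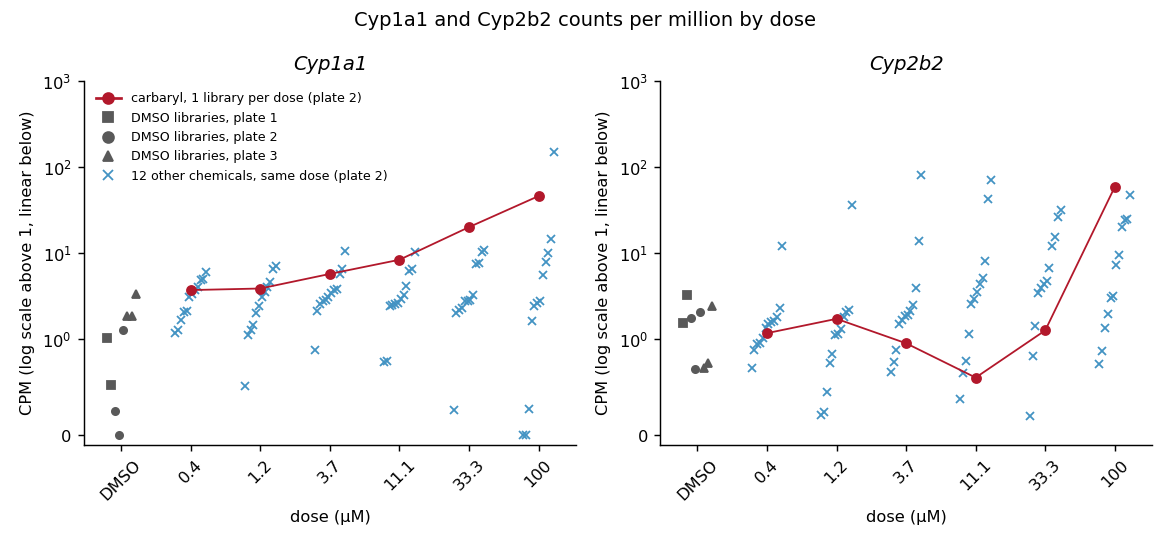
CPM (log scale above 1, linear below) of Cyp1a1 (left) and Cyp2b2 (right) in the 8 DMSO libraries by plate (grey), the carbaryl libraries by dose in µM (red line) and 12 other chemicals at the same doses (blue crosses). Cyp1a1 climbs over the doses to 46.1 CPM, while Cyp2b2 stays at 0.6001 to 1.73 CPM up to 33.3 µM and reaches 58.96 CPM at 100 µM.

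No other AhR target was called for the trend. Of 20 genes on the AhR target list, 16 had a probe and 10 passed the filter on low counts, and of these 10 Cyp1a1 was called. The list's median fitted change was 0.37, against -0.04 over all probes. Cyp1a2, the liver P450 that oxidises aromatic amines, was at 58.3 to 96.5 CPM with carbaryl and at 29.6, 61.5 and 87.2 CPM in DMSO (lowest, median and highest), with a fitted 0.74 ± 0.32 (adjusted p = 0.411). Tiparp, an ADP-ribosyltransferase that limits AhR signalling, was at 27.5 to 38.7 CPM with carbaryl and 20.9 to 45.01 CPM in DMSO (0.49 ± 0.22, adjusted p = 0.422), and the groups overlapped. Ahrr, the AhR repressor, had 0 counts in all 14 libraries. Cyp1b1 had 1.40 CPM at 100 µM, from 6 counts, and at most 0.854 CPM in DMSO, too few to test. Ahr itself was at 180 to 264 CPM with carbaryl and 134 to 216 CPM in DMSO and was not called (0.44 ± 0.18, adjusted p = 0.374).

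Of 11 genes tested on the AhR pathway list, which holds its partners and chaperones, 2 were called lower in the 100 µM library, where 1.94% of all probes were. Hsp90aa1, the inducible HSP90 that holds AhR ready in the cytosol, was at 25.6 CPM there and at 84.5 to 112 CPM in DMSO (-1.79 ± 0.24, adjusted p = 0.00563). It was below every DMSO library at all 6 doses, but so was the median of the 12 other chemicals, at 65.9 to 79.4 CPM. Carbaryl was the lowest of the 13 at 100 µM and ranked 8 to 10 at the other doses. Ptges3, which encodes p23, was at 84.8 CPM and at 172 to 375 CPM in DMSO (-1.58 ± 0.32, adjusted p = 0.0392). The Ptges3 call was lost without any one of DMSO replicates 2, 3, 4, 6, 8 or 9. Arnt was at 3.26 to 6.29 CPM with carbaryl and 2.09 to 6.66 CPM in DMSO and did not pass the test.

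Ppp1r3c encodes a subunit that brings protein phosphatase to glycogen and favours glycogen synthesis. It had 47.6, 70.4 and 83.0 CPM in DMSO (lowest, median and highest) and 95.7, 91.95, 107.9, 101.0, 136.9 and 184.8 CPM from 0.4 to 100 µM. All 6 carbaryl libraries were above all 8 DMSO libraries, and the fitted rise was 1.43 ± 0.22 (adjusted p = 0.0212). At 0.4, 1.2 and 3.7 µM the 12 other chemicals had medians of 82.2, 79.3 and 87.3 CPM and reached 128.8, 111.9 and 128.4 CPM. Carbaryl ranked 5, 6 and 2 of 13 at those doses, so its level there lay within theirs. Of the other 3 that rose, Rassf7, a Ras-association protein of the spindle, was at 120.5 CPM at 100 µM and at 45.8 to 74.9 CPM in DMSO (1.14 ± 0.18, adjusted p = 0.023). Lpin2, a phosphatidate phosphatase that makes diacylglycerol, was at 73.4 to 124.1 CPM in DMSO and at 106.2, 109.5, 120.3, 134.2, 160.6 and 189.5 CPM over the doses (1.04 ± 0.16, adjusted p = 0.0212). Its 3 lower doses lay within the DMSO range and its 3 upper doses above it.

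The 4 that fell include 2 genes of fat storage. Plin2 coats lipid droplets. It was at 663, 769 and 860 CPM in DMSO (lowest, median and highest) and at 708, 674, 685, 593, 449 and 412 CPM from 0.4 to 100 µM (-0.92 ± 0.14, adjusted p = 0.0212). Dgat2, which makes triglyceride from diacylglycerol, was at 22.6 CPM at 100 µM and at 40.7 to 55.7 CPM in DMSO (-0.98 ± 0.16, adjusted p = 0.0338). Both lay below every DMSO library at the 3 upper doses. At 100 µM the 12 other chemicals had medians of 555.9 CPM for Plin2 and 33.1 CPM for Dgat2, also below every DMSO library. Carbaryl ranked 11 and 12 of 13 from the highest there. Slc50a1, a sugar transporter, had 41.5 CPM at 0.4 µM, above every DMSO library (18.9 to 40.3 CPM), and 10.7 CPM at 100 µM (-1.40 ± 0.24, adjusted p = 0.0467). Chdh, the mitochondrial choline dehydrogenase, was at 3.496 CPM at 100 µM and at 10.0 to 17.8 CPM in DMSO (-1.66 ± 0.27, adjusted p = 0.032). The 12 others had medians of 15.6 CPM for Slc50a1 and 8.12 CPM for Chdh at 100 µM, again below every DMSO library. Carbaryl ranked 11 and 10 of 13 from the highest for these genes.

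**Figure D2:**
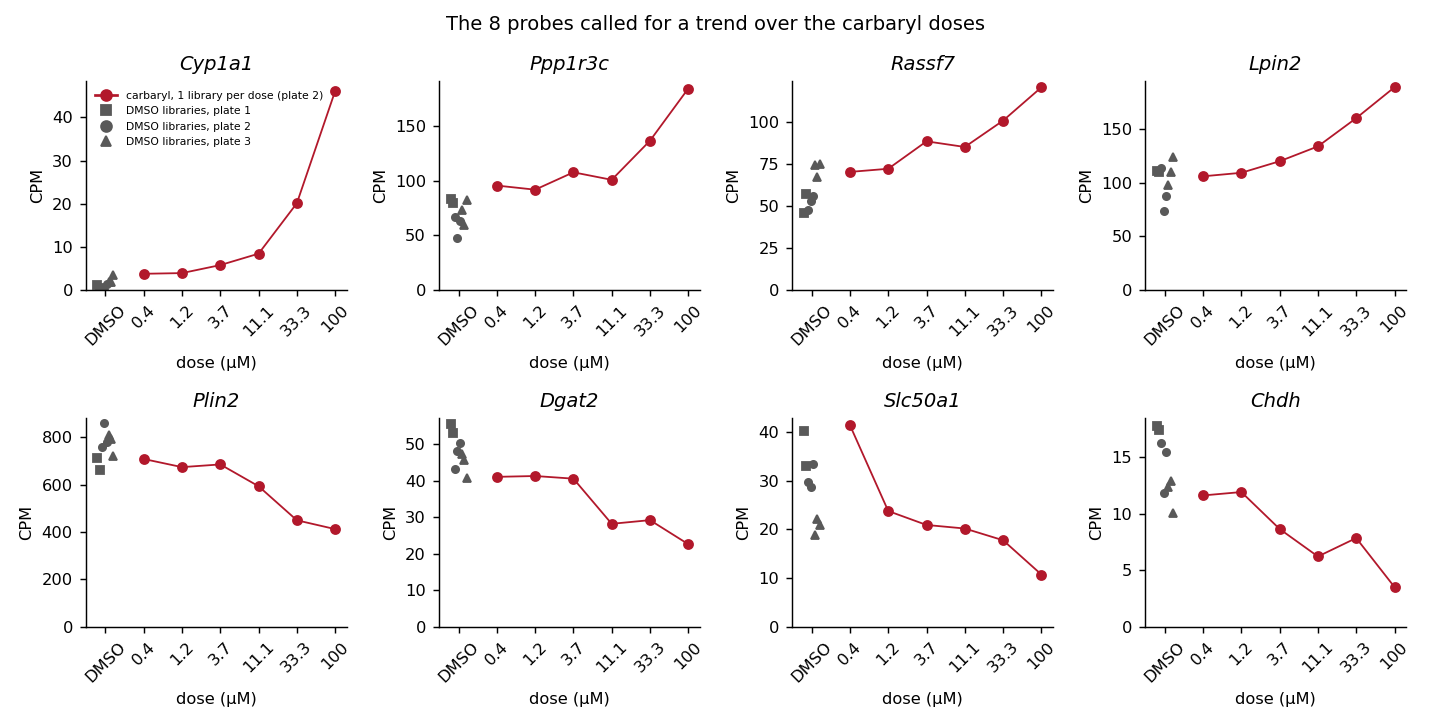
CPM in the DMSO libraries by plate (grey) and the carbaryl libraries by dose in µM (red line) for the 8 probes called for a trend, each on its own axis from 0. Cyp1a1 and Ppp1r3c lie above all DMSO libraries at all 6 doses, while Plin2 and Dgat2 lie below all of them at 11.1 to 100 µM.

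These calls rest on single libraries to different degrees. Cyp1a1 alone was called without DMSO replicate 6, with the plate 2 libraries alone or with DMSO replicate 1 added. Without DMSO replicate 5 all 8 were called and the count rose to 74. Leaving out the 100 µM library kept 1 of the 8, Cyp1a1, and leaving out the 33.3 µM library kept 2, Cyp1a1 and Chdh. Lpin2 and Plin2 held without any one DMSO library other than replicate 6, and Ppp1r3c and Rassf7 were lost without replicate 4 as well. Chdh, Dgat2 and Slc50a1 were lost without any one of DMSO replicates 2, 3, 4, 6, 7 or 8, and Dgat2 and Slc50a1 also without replicate 9. Without the 1.2 or 11.1 µM library those 3 were lost, and Slc50a1 was lost without the 3.7 µM library.

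Promoters are shown for 3 genes, each 250 bases before to 50 bases after the start of transcription (RefSeq, assembly GRCr8, read along the gene). Gsta2 stands for the AhR targets, Ppp1r3c for the trend, and Pfkfb3 for the genes that were high at every dose. Capitals mark GCGTG, the core of the AhR response element, and ACGTG, on either strand. The pair differ at the first letter and together make up the core read by the hypoxia factor HIF-1, so GCGTG belongs to both motifs. A CACGTG run counts as ACGTG on both strands.

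Gsta2, chr8:88077043-88077342, minus strand: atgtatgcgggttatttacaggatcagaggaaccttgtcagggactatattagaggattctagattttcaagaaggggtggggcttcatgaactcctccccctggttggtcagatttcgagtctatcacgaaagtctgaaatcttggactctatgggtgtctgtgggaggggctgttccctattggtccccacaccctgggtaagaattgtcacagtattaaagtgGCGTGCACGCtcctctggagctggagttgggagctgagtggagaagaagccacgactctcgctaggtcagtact

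Ppp1r3c, chr1:243878478-243878777, minus strand: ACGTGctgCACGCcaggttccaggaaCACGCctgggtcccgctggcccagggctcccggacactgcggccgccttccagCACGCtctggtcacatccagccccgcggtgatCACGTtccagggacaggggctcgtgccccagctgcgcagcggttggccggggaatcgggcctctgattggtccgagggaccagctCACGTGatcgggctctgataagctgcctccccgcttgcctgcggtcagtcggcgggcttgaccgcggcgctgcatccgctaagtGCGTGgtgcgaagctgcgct

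Pfkfb3, chr17:71944683-71944982, plus strand: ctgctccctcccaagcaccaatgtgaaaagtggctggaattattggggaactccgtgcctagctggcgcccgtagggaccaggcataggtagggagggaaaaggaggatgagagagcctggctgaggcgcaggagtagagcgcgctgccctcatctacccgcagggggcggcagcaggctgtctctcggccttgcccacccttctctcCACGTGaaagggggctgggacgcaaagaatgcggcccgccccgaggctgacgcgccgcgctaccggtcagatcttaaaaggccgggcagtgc

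Gsta2 held GCGTG at 2 places, side by side on opposite strands. Ppp1r3c held GCGTG at 4 places and ACGTG 4 times, and Pfkfb3 held a CACGTG run and no GCGTG. Of 33469 promoters of that length, 29.7% held GCGTG, 19.3% held ACGTG and 41.6% held either. Of the 8 trend genes 5 matched 1 promoter each, and 4 of these held GCGTG. Of the AhR target list 17 genes matched and 11 held GCGTG, and Tiparp held it at 1 place and Cyp1a2 at 0. These matches describe letters in a window and not binding.

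Tested one at a time against DMSO, the 100 µM library gave 35 probes higher (0.360% of those tested) and 189 lower (1.94%). The 33.3 µM library gave 13 higher (0.134%) and 1 lower (0.0103%). edgeR called 0 probes at 0.4, 1.2 and 11.1 µM and 1 probe, lower, at 3.7 µM. That probe, listed as LOC1036927160.9 and named after its values were seen, was at 285.4 CPM at 3.7 µM and at 736 to 871 CPM in DMSO. At 0.4, 1.2, 3.7 and 11.1 µM, 576, 320, 957 and 412 probes had an unadjusted p under 0.05, and DESeq2 called 23, 10, 110 and 22. Each test takes 1 library as varying like DMSO does. List counts at 100 and 33.3 µM further on are to be read beside the shares of all probes given here. With the plate 2 DMSO libraries alone, 0 probes were called at any dose.

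**Figure D3:**
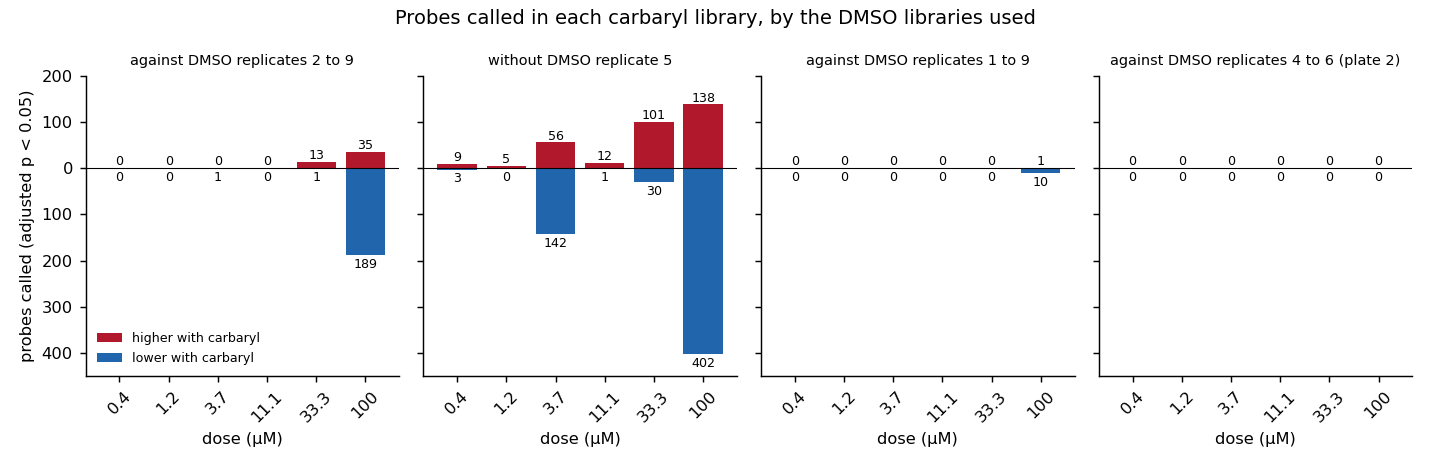
Probes called (adjusted p under 0.05) in each carbaryl library by dose in µM, higher above the line and lower below it, in 4 panels by the DMSO libraries used. The 100 µM library leads with 35 and 189 calls against DMSO replicates 2 to 9, with 138 and 402 without replicate 5, and has 0 against the 3 libraries of plate 2.

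Of the enzymes that CAR and PXR control, the 100 µM library had 4 higher and 1 lower of 22 tested, and the lower doses had none called. Over all probes 0.360% were higher and 1.94% lower at 100 µM. The list's median was 0.32 at 100 µM, against -0.03 over all probes. Ugt2b1 attaches glucuronic acid to phenols and steroids. It was at 42.1, 52.4 and 83.7 CPM in DMSO (lowest, median and highest), at 41.4 to 72.4 CPM up to 33.3 µM, and at 185.0 CPM at 100 µM (1.80 ± 0.19, adjusted p = 0.00204). Cyp2c6v1 was at 459 CPM and at 185 to 258 CPM in DMSO (1.07 ± 0.17, adjusted p = 0.0116). Cyp3a1 and Cyp3a2, the main PXR targets, were at 894 and 776 CPM, against 366 to 552 CPM and 389 to 516 CPM in DMSO. Their changes were 0.94 ± 0.18 and 0.82 ± 0.16 (adjusted p = 0.0329 and 0.029), and both calls were lost without any one of DMSO replicates 2, 3, 4, 6 or 8. Cyp3a2 was also lost without replicate 7 or 9. At 100 µM the 12 other chemicals had medians of 682 CPM for Cyp3a1 and 601 CPM for Cyp3a2, both above every DMSO library. Carbaryl ranked 3 and 2 of 13 there. Set against the mean trend of those 12, 0 of 23 list genes were called, beside 1.30% above and 0.537% below over all probes.

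Cyp2b2, the classic CAR target, was high at 100 µM. It had 0.695, 1.64 and 3.26 CPM in DMSO (lowest, median and highest), 1.18, 1.73, 0.959, 0.6001 and 1.27 CPM from 0.4 to 33.3 µM, and 58.96 CPM at 100 µM, from 253 counts. The probe was too low in most libraries to enter the fit, and the rise is that of 1 library, so no test of it is given. Carbaryl was not alone in this. At 100 µM the 12 other chemicals ranged from 0.746 CPM (cyproconazole) to 47.5 CPM (cyprodinil), with PFOS at 24.7 CPM and S-Bioallethrin at 24.5 CPM. At 3.7 µM cyproconazole had 81.3 CPM. Ugt1a1, which conjugates bilirubin, went the other way at 100 µM, with 32.9 CPM against 155 to 285 CPM in DMSO (-2.33 ± 0.25, adjusted p = 0.00204). Ugt1a1, Prdx1, Lcn2 and the genes named from the HIF-1 list were picked after their values were seen. Members of the Ugt, Gsta, Cyp2b, Cyp2c and Cyp3a families are close copies, and single members are uncertain.

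Enzymes that conjugate naphthol split in the same library, where 0.360% of all probes were higher and 1.94% lower. Of 19 tested on that list 2 were higher and 2 lower at 100 µM, and the median was -0.06. Ugt2b10 joined Ugt2b1, with 805.7 CPM against 190 to 348 CPM in DMSO (1.66 ± 0.20, adjusted p = 0.00353). Ugt2b7 joined Ugt1a1, with 2.33 CPM against 17.9 to 39.98 CPM (-3.68 ± 0.55, adjusted p = 0.00923). In the 12 other chemicals at 100 µM the median of Ugt2b7 was 12.4 CPM, also below every DMSO library. Sult1a1, the phenol sulfotransferase, was at 552 to 675 CPM with carbaryl and 460 to 809 CPM in DMSO and was not called. Cyb5a, which passes electrons to P450s, was higher with 836 CPM against 308 to 479 CPM (1.15 ± 0.18, adjusted p = 0.0112).

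The targets of carbaryl's insecticidal action were scarcely expressed. Ache (acetylcholinesterase) had at most 0.160 CPM with carbaryl and 0 counts in every DMSO library. Bche (butyrylcholinesterase) was at 2.40 to 4.43 CPM with carbaryl and 1.63 to 5.48 CPM in DMSO and was not called (0.21 ± 0.38, adjusted p = 0.894). Of 17 esterases tested, 0 were called in the trend, at 33.3 µM or at 100 µM.

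The NRF2 list of antioxidant genes gave 1 higher and 3 lower of 24 tested at 100 µM. Gsta2, a glutathione transferase that AhR and NRF2 both induce, was at 217 to 288 CPM up to 33.3 µM and at 647.9 CPM at 100 µM, against 207 to 280 CPM in DMSO (1.43 ± 0.17, adjusted p = 0.00277). Nqo1, a quinone reductase on both lists, had 27.5 CPM against 56.4 to 69.9 CPM in DMSO (-1.27 ± 0.21, adjusted p = 0.0148). Prdx1, a peroxiredoxin, had 81.1 CPM against 463 to 1222 CPM (-3.15 ± 0.41, adjusted p = 0.005). Txnrd1, a thioredoxin reductase, was also lower (-1.09 ± 0.21, adjusted p = 0.029), a call lost without any one of DMSO replicates 2, 3, 4, 6, 8 or 9. Hmox1, the haem oxygenase, was at 369 to 622 CPM with carbaryl and 241 to 595 CPM in DMSO and was not called. Beside the counts of this list, 0.360% of all probes were higher and 1.94% lower at 100 µM.

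On the lists of PPARα targets, sterol synthesis and fatty acid synthesis 5 genes were called at 100 µM, all lower, as were 189 of the 224 calls over all probes. Cd36 imports fatty acids. It was at 111, 132 and 171 CPM in DMSO (lowest, median and highest) and at 55.6, 76.2, 57.1, 92.2, 49.95 and 8.62 CPM from 0.4 to 100 µM. It lay below every DMSO library at every dose, and it was called at 33.3 µM (-1.52 ± 0.20, adjusted p = 0.0301) and at 100 µM (-4.07 ± 0.25, adjusted p = 1.28e-04). The 33.3 µM call was lost without any one of DMSO replicates 2, 3, 4, 6, 7 or 8. In the 12 other chemicals the median of Cd36 was 84.9 CPM. Fdps makes farnesyl diphosphate for sterols. In the 12 other chemicals its median ran from 17.6 CPM at 33.3 µM to 55.2 CPM at 1.2 µM. With carbaryl it had 24.6, 44.8, 10.7, 69.4 and 21.8 CPM from 0.4 to 33.3 µM, without order. It was at 0.932 CPM at 100 µM and at 49.4 to 117 CPM in DMSO (-6.48 ± 0.72, adjusted p = 0.00256). No other of the 21 sterol synthesis genes tested was called. Of 16 genes of fatty acid synthesis, 2 were lower, Dgat2 and the desaturase Fads1, whose call was lost without any one of DMSO replicates 2, 3, 4, 6, 7, 8 or 9. Of 25 PPARα targets, 2 were lower, Cd36 and Plin2.

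Among liver functions, Gpt (alanine aminotransferase) was higher at 100 µM with 427.6 CPM against 138 to 208 CPM in DMSO (1.51 ± 0.22, adjusted p = 0.00856). It was above all 8 DMSO libraries at every dose, from 276 CPM at 0.4 µM. The 12 other chemicals had medians of 264.5, 246.2 and 258.4 CPM at 0.4, 1.2 and 3.7 µM, also above every DMSO library, and carbaryl ranked 7, 6 and 2 of 13 there. Tat (tyrosine aminotransferase, a glucocorticoid target) had 144.7 CPM against 69.97 to 93.2 CPM (0.92 ± 0.18, adjusted p = 0.0312), a call lost without any one of DMSO replicates 2, 3, 4, 6, 7, 8 or 9. Crp (C-reactive protein) was lower with 167 CPM against 474.5 to 628.5 CPM in DMSO (-1.76 ± 0.18). At 100 µM the median of Crp in the 12 other chemicals was 358.2 CPM, also below every DMSO library. Carbaryl ranked 11 of 13 from the highest there. Crp and Lcn2 were the 2 lower of 26 acute phase genes tested, and the Lcn2 call (-0.95 ± 0.19, adjusted p = 0.0333) was lost without any one of those 7 DMSO libraries.

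Of the 189 probes called lower at 100 µM, 9 had 0 counts there, for which a fall can be given only as a bound. Rnpep, an aminopeptidase, was at least 29.0-fold lower than the DMSO mean of 20.3 CPM, taking 3 counts as the limit that a count of 0 allows. On the same limit Derl2, of endoplasmic reticulum quality control, was at least 26.0-fold lower and Hdac1, a histone deacetylase, at least 19.8-fold lower. Hdac1 was below every DMSO library at all 6 doses, and its median in the 12 other chemicals was 3.01 CPM, against 12.7 CPM in DMSO. At 100 µM those 12 had medians of 9.67 CPM for Rnpep and 5.84 CPM for Derl2, also below the DMSO means of 20.3 and 18.2 CPM. The 189 probes called lower had a median of -2.16 (log2 of CPM + 1) at 100 µM against DMSO replicates 4 and 6. These probes were picked for being low in that same library, so its low median follows from the choice. Their median was -0.49, -0.30, -0.73, -0.12 and -0.47 from 0.4 to 33.3 µM and -0.25 in DMSO replicate 5. In the 12 other chemicals at 100 µM it was -1.66 to 0.00, and at 1.2 µM 1 library reached -2.50. The part of library quality in these falls was not tested.

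**Figure D4:**
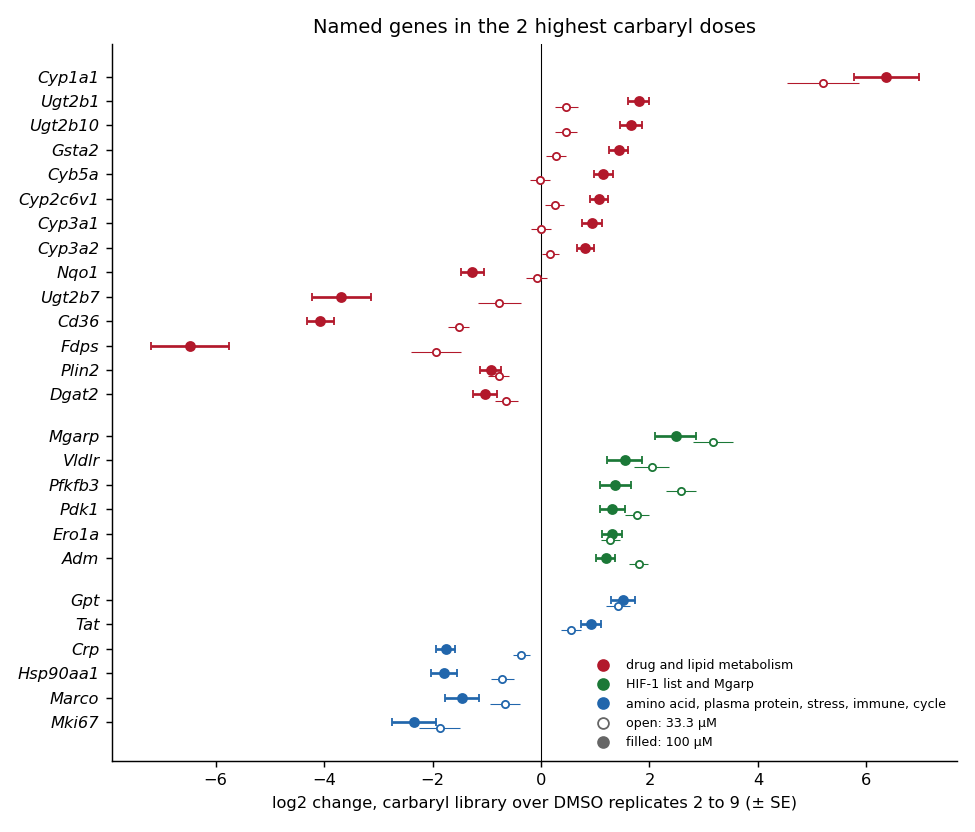
Fitted log2 change of named genes in the 33.3 µM (open) and 100 µM (filled) carbaryl libraries over DMSO replicates 2 to 9, with bars for the SE, coloured by group. Ugt2b1, Ugt2b10, Gsta2 and Cyb5a stand clear of 0 at 100 µM and lie at -0.02 to 0.47 at 33.3 µM, while Pfkfb3, Pdk1 and Adm are further from 0 at 33.3 µM.

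Some genes were above DMSO from the lowest dose on. Across all probes, 64 (0.658%) had all 6 carbaryl libraries above all 8 DMSO libraries and 60 (0.617%) had all 6 below. Pfkfb3 makes the activator of the glycolytic enzyme phosphofructokinase. It was at 21.5, 30.1 and 54.1 CPM in DMSO (lowest, median and highest) and at 80.8, 86.8, 85.3, 113.2, 143.9 and 63.2 CPM from 0.4 to 100 µM. Every carbaryl library was above every DMSO library, and the highest was the 33.3 µM library. At 0.4 µM the 12 other chemicals had a median of 63.3 CPM for Pfkfb3, also above every DMSO library. Carbaryl ranked 4 of 13 at 0.4 and at 100 µM, and was the highest at 11.1 and 33.3 µM. Mgarp, a mitochondrial protein, was at 57.0, 67.9, 58.0, 69.0, 119.6 and 75.3 CPM over the doses and at 10.2 to 51.4 CPM in DMSO. At 33.3 µM Pfkfb3 was called at 2.58 ± 0.27 (adjusted p = 0.0185) and Mgarp at 3.17 ± 0.37 (adjusted p = 0.0222). Both calls were lost without any one of DMSO replicates 2, 3, 4 or 6. The median of Mgarp in the 12 other chemicals was 40.6 CPM. Slc16a3, the lactate exporter, was above every DMSO library up to 33.3 µM and within their range at 100 µM. It was at 37.5 CPM at 33.3 µM, at 10.7 CPM at 100 µM and at 1.75, 2.50 and 17.8 CPM in DMSO (lowest, median and highest), and was called at 33.3 µM (4.17 ± 0.53, adjusted p = 0.0247).

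Several of these are known targets of HIF-1, the factor that switches cells to glycolysis when oxygen is low, and a list of 36 such genes was drawn up after they were seen. Of 29 tested, 0 were called for the trend, 6 were higher at 33.3 µM and 5 at 100 µM, and none was lower. Over all probes 0.134% were higher at 33.3 µM and 0.360% at 100 µM. The list's median was 0.92 in the trend, 1.29 at 33.3 µM and 0.60 at 100 µM, against -0.04, -0.03 and -0.03 over all probes. The 6 at 33.3 µM were Slc16a3, Pfkfb3, Car12, Adm, Pdk1 and Ero1a, and the 5 at 100 µM were Vldlr, Pfkfb3, Pdk1, Ero1a and Adm. Ero1a, the oxidase that forms disulfide bonds, was at 779 to 1132 CPM with carbaryl and 420 to 663 CPM in DMSO (1.31 ± 0.18 at 100 µM, adjusted p = 0.00563). Pdk1, a kinase that shuts off pyruvate dehydrogenase, was at 409 to 660 CPM and 165 to 412 CPM in DMSO. For Ero1a the 12 other chemicals had medians of 663.6 to 802.3 CPM over the doses, and carbaryl ranked 2 to 6 of 13. Adm was at 217.2 CPM at 100 µM, below the median of 293.6 CPM in the 12 others, and ranked 10 of 13. All 6 calls at 33.3 µM were lost without any one of DMSO replicates 2, 3, 4 or 6. At 100 µM Pfkfb3 was lost without any one of DMSO replicates 2, 3, 4, 7 or 8, Pdk1 without replicate 4, and Vldlr without any one of replicates 2, 3, 4, 6, 7, 8 or 9.

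Many libraries of other chemicals were also high for this list. Its summed level was 11411 to 13163 CPM in the carbaryl libraries and 7524 to 10637 CPM in DMSO. In the 72 libraries of the 12 other chemicals it was 7464 to 24536 CPM, and 34 of them were above every DMSO library. Slc16a3 had a median of 13.2 CPM in those 72 libraries, and among the DMSO libraries it was 1.75 to 2.78 CPM on plate 2 and reached 17.8 CPM on plate 3. The part of the well or the plate in these levels was not tested. Of the 26 list genes with 1 promoter in the table, 15 held GCGTG and 16 held ACGTG.

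Which changes set carbaryl apart from other chemicals was asked on plate 2 alone, with the same 6 doses of 12 others: fludioxonil, cyprodinil, triticonazole, dichlobenil, PFOS, dimethenamid, S-Bioallethrin, PFOA, cyclanilide, oxadiazon, cyproconazole and DEHP. All 13 shared DMSO replicates 4 to 6. Of 10436 probes, the carbaryl trend was above the mean trend of the 12 for 136 (1.30%) and below it for 56 (0.537%). Cyp1a1 led with a difference of 3.26 ± 0.41 (adjusted p = 2.24e-07). It was called under all 20 alternatives, at 2.85 to 3.66. Carbaryl ranked 6, 5, 3 and 2 of 13 from 0.4 to 11.1 µM, and oxadiazon was above it at 1.2, 3.7 and 11.1 µM with 7.04, 10.57 and 10.44 CPM. At 33.3 µM the carbaryl library had 20.1 CPM, the highest of the 13, and the others had 0.265 to 10.97 CPM. At 100 µM it had 46.1 CPM, below fludioxonil at 151.5 CPM and above oxadiazon at 14.6 CPM and cyprodinil at 10.2 CPM.

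Ppp1r3c differed by 1.64 ± 0.27 (adjusted p = 1.72e-04) and held under all 20 alternatives. At 100 µM carbaryl had 184.8 CPM and the others 16.4 to 101.3 CPM, with a median of 42.5 CPM. Pfkfb3 differed by 1.92 ± 0.39 (adjusted p = 0.00465), and carbaryl was the highest of the 13 at 11.1 and 33.3 µM. Cytl1, a secreted cytokine-like protein, differed by 2.18 ± 0.45 (adjusted p = 0.00465), yet at 100 µM it was at 2.33 CPM, below the 9.74 to 18.3 CPM of DMSO. Rasgef1b, a Ras-family exchange factor, differed by 1.71 ± 0.32 (adjusted p = 0.00227), with 24.9 to 44.2 CPM over the carbaryl doses and 11.5 to 26.1 CPM in DMSO. Lpin2 and Rassf7 were above the others as well, by 0.81 ± 0.21 and 0.76 ± 0.20 (adjusted p = 0.026 and 0.0262).

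On the hepatocyte list 1 of 11 genes was above the 12 chemicals, and on the list of the urea cycle and amino acid breakdown 0 of 27, against 1.30% of all probes. Alb differed by 0.59 ± 0.16 (adjusted p = 0.0433), Ugp2, which makes UDP-glucose, by 0.95 ± 0.23 (adjusted p = 0.0137) and Cyp2d4, a P450, by 0.91 ± 0.24 (adjusted p = 0.0262). All 3 were above every DMSO library at every dose. For Alb the 12 others had a median of 6033 CPM at 0.4 µM. That is above the lowest carbaryl level, 5920 CPM, and so above every DMSO library as well. Carbaryl ranked 6 of 13 for Alb at 0.4 and 1.2 µM, and 4 for Ugp2 and 3 for Cyp2d4 at both doses. Pdk1 and Ankrd37 of the HIF-1 list, both named after their values were seen, differed by 1.17 ± 0.27 and 1.35 ± 0.28 (adjusted p = 0.0116 and 0.00518). Gsta2, Ugt2b1 and Ugt2b10 were not called against the 12, at 0.05, -0.23 and -0.18 (adjusted p = 0.962, 0.881 and 0.897). At 100 µM Gsta2 ranged from 200 to 1867 CPM among the others, and Ugt2b1 from 26.0 to 265 CPM.

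Of the marker lists, 0 of 8 macrophage, 0 of 5 endothelial and 0 of 3 bile duct genes and 1 of 14 cell cycle genes were below the 12 chemicals, against 0.537% of all probes. Cd5l, which is not on the macrophage list and encodes a protein secreted by macrophages, differed by -1.65 ± 0.33 (adjusted p = 0.00311), with 1.17 CPM at 100 µM and 4.31 to 8.75 CPM in DMSO. Mki67, a marker of dividing cells, differed by -2.01 ± 0.54 (adjusted p = 0.0309). It was at 2.33 to 4.76 CPM with carbaryl, below all DMSO libraries (7.38 to 13.6 CPM), and was the only one of 13 cell cycle genes called at 100 µM (-2.34 ± 0.41, adjusted p = 0.0192), a call lost without DMSO replicate 4. In bulk RNA, fewer cells of a type and less RNA per cell cannot be told apart. Sgf29, a subunit of histone acetyltransferase complexes, differed by -1.54 ± 0.29 (adjusted p = 0.00227) and held under all 20 alternatives. Plk2, a p53 target, differed by -0.93 ± 0.23 (adjusted p = 0.0192) and was below every DMSO library at every dose. Acot2 and Cyp4a1, PPARα targets of fatty acid breakdown, differed by -1.30 ± 0.35 and -1.28 ± 0.37 (adjusted p = 0.0339 and 0.0477). Acot2 was lost in 7 of 20 alternatives and Cyp4a1 in 11, among them leaving out single doses and several single chemicals. Without PFOA the Cyp4a1 difference was -0.93 and without S-Bioallethrin -0.99. At 33.3 µM the others reached 123.3 CPM for Acot2 and 661.9 CPM for Cyp4a1, with medians of 16.5 and 38.1 CPM. Carbaryl had 16.5 and 26.9 CPM there, and ranked 7 and 12 of 13. Of 192 calls in this contrast 39 held without the 33.3 µM doses and 66 without the 100 µM doses. Among the named genes, Cyp1a1, Ppp1r3c and Sgf29 held under all 20 alternatives, and Cytl1, Pfkfb3, Rasgef1b, Cd5l, Ugp2, Pdk1 and Ankrd37 were lost without the 33.3 µM doses alone. Alb, Lpin2, Rassf7, Cyp2d4, Mki67, Plk2 and Timp1 were lost without the 33.3 µM doses and in at least 1 more alternative.

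**Figure D5:**
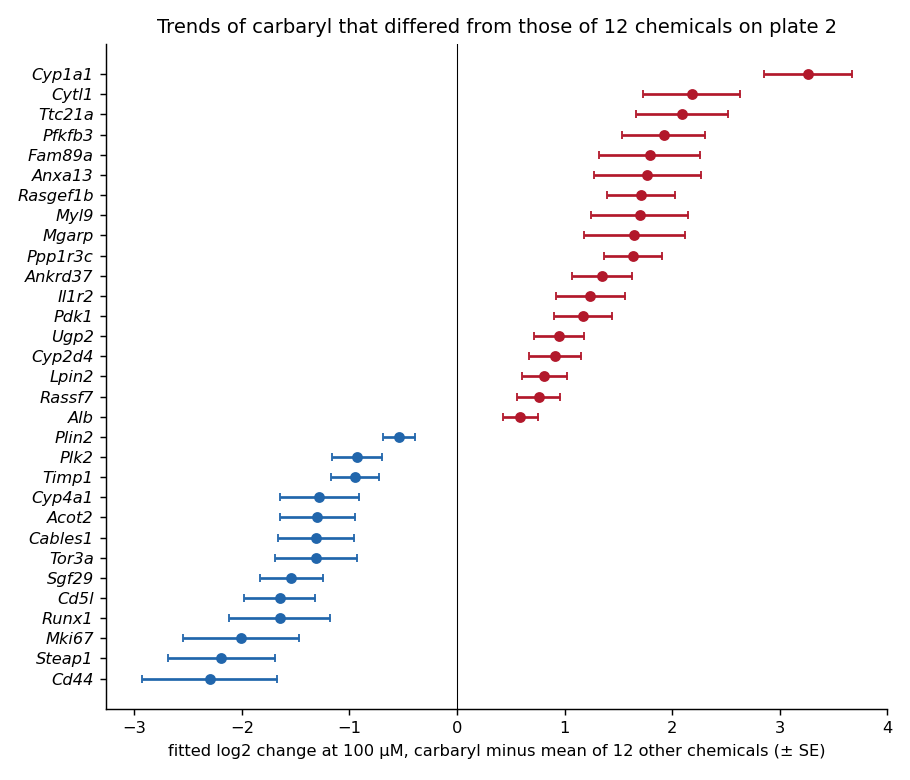
Fitted log2 change at 100 µM for carbaryl minus the mean of 12 other chemicals at the same doses on plate 2, with bars for the SE, for named probes that were called. Cyp1a1 stands highest at 3.26, and Cd44, Steap1 and Mki67 lie lowest at -2.30, -2.19 and -2.01.

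Of 12 macrophage markers 8 were tested, 0 were called for the trend and 1, the scavenger receptor Marco, was lower at 100 µM. It had 6.06 CPM against 13.99 to 20.6 CPM in DMSO (-1.46 ± 0.31, adjusted p = 0.044), a call lost without any one of DMSO replicates 2, 3, 4, 6, 7, 8 or 9. The summed macrophage level was 45.4 CPM at 100 µM, 96.4 CPM at most among the carbaryl libraries and 71.2 to 108 CPM in DMSO. The median of the 8 was -1.21 at 100 µM, against -0.03 over all probes, of which 1.94% were lower there. Endothelial markers summed to 16.1 to 23.8 CPM and 15.7 to 23.7 CPM in DMSO, and bile duct markers to 66.7 to 97.5 CPM and 47.3 to 84.5 CPM. The keratin Krt7 and the channel Cftr of bile ducts and the collagen Col1a1 of stellate cells had 0 counts in all 14 libraries. Stellate markers summed to 215 to 259 CPM and 210 to 273 CPM in DMSO, and Timp1 among them was below the 12 chemicals (-0.95 ± 0.22, adjusted p = 0.01). Their part in the results was not tested.

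The remaining lists held few calls, beside 0.360% higher and 1.94% lower of all probes at 100 µM. Of 13 genes of the unfolded protein response 1 was lower at 100 µM, Dnajc3 (-1.94 ± 0.38, adjusted p = 0.0318), a call lost without any one of DMSO replicates 2, 3, 4, 6, 7, 8 or 9. Of 21 genes of the integrated stress response 1 was higher, Vldlr, the very-low-density lipoprotein receptor (1.54 ± 0.33, adjusted p = 0.0492), lost likewise. None of 17 p53 targets, 17 immediate early genes or 8 genes of bile acid synthesis and transport was called for the trend, at 33.3 µM or at 100 µM. The medians of these 5 lists in the trend ran from -0.47 to -0.12.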

How the data were processed

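RNA of rat primary hepatocytes was measured by TempO-Seq, and the authors deposited whole-number counts for 22253 probes in 192 libraries. Bowtie is named in the submitters' processing notes, while its version and the genome build are not given in the sources used here. A probe entered the fit with 1.983 CPM or more, which is 10 counts in a library of median depth, in 6 or more of 14 libraries, and 9725 did. Counts were scaled by TMM and fitted with edgeR 4.0.16 (R 4.3.3) by quasi-likelihood, with log dose and plate as terms. Each carbaryl library was also tested against DMSO replicates 2 to 9, and the carbaryl trend against the mean trend of 12 chemicals on plate 2 (10436 probes, 81 libraries). DESeq2 1.42.0, other scalings, filters and left-out libraries were alternatives. The tests were checked on simulated data with the same spread for every probe, no plate effect and no deviant library. That check therefore does not show how the tests perform on these libraries. The gene lists and their members were chosen with earlier results of these data known, while the carbaryl libraries were picked by their titles. Genes were named by rule: the most changed called probes in each comparison with a mean count of at least 10, up to 4 members of each list by the smallest trend p, and a fixed set led by Cyp1a1. A gene with several probes is given by its most counted probe.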

Additional observations from a re-analysis of the deposited data

Results flagged for a closer look

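In 7 of 71 genes examined, 1 DMSO library stood apart from the other 7, where chance alone flags about 1 in 20 groups. Prr15 was at 3.215 CPM in DMSO replicate 9 and at 0.257 to 1.29 CPM in the others, and Slc16a3 was at 17.78 CPM in the same library and at 1.75 to 8.52 CPM in the others. DMSO replicate 5 stood apart in Cyp2c6v1 (184.6 CPM, others 230.3 to 257.6), Dnajc3 (118.5 CPM, others 202.1 to 263.8) and Myl9 (2.086 CPM, others 3.289 to 3.998). Hsp90aa1 was at 112.2 CPM in DMSO replicate 7 (others 84.5 to 93.4) and Marco at 20.55 CPM in DMSO replicate 6 (others 13.99 to 16.5).

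The carbaryl trend differed from the mean trend of the 12 other chemicals, tested as a difference of slopes in edgeR, for 31 named genes. Those above the others, as log2 at 100 µM, were Cyp1a1 at 3.26, Cytl1 at 2.18, Ttc21a at 2.09, Pfkfb3 at 1.92, Fam89a at 1.79, Anxa13 at 1.77, Rasgef1b at 1.71, Myl9 at 1.70, Mgarp at 1.65 and Ppp1r3c at 1.64. Ankrd37 at 1.35, Il1r2 at 1.24, Pdk1 at 1.17, Ugp2 at 0.95, Cyp2d4 at 0.91, Lpin2 at 0.81, Rassf7 at 0.76 and Alb at 0.59 followed. Those below were Cd44 at -2.30, Steap1 at -2.19, Mki67 at -2.01, Cd5l at -1.65, Runx1 at -1.65, Sgf29 at -1.54, Cables1 at -1.31, Tor3a at -1.31, Acot2 at -1.30 and Cyp4a1 at -1.28. Timp1 at -0.95, Plk2 at -0.93 and Plin2 at -0.54 were closer to the others. Calls were lost in 14 of 20 alternatives for Tor3a, in 12 for Mgarp and in 11 for Alb, Plin2 and Cyp4a1. They were lost in 10 for Anxa13 and Runx1 and in 9 for Cd44. Cyp1a1, Ppp1r3c and Sgf29 were lost in 0, and the rest in 1 to 8. Steap1 rested on 1 to 10 counts and Cd44 on 4 to 14 counts per carbaryl library.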

How the results depend on the processing

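The 8 trend calls became 151 with DESeq2's test, 26 without the filter, 147 without the plate term, 43 on dose ranks and 205 with the library score as a covariate. They became 1, Cyp1a1, with DMSO replicates 1 to 9, with plate 2 libraries only and with carbaryl libraries alone. Leaving out 1 library gave 1 to 74. For the 0.4, 1.2, 3.7, 11.1, 33.3 and 100 µM libraries, DESeq2's test called 23, 10, 110, 22, 97 and 342 probes. Leaving out 1 DMSO library gave 0 to 12, 0 to 5, 0 to 198, 0 to 13, 0 to 131 and 123 to 540, each highest without replicate 5. Without the plate term the calls were 1 at 0.4 µM, 7 at 3.7 µM and 2 at 33.3 µM, and DESeq2's size factors gave 3 at 3.7 µM. With DMSO replicates 1 to 9, 0 probes were called at 3.7 and 33.3 µM and 11 at 100 µM, and with plate 2 only, 0 at each of these doses. The 192 calls against the 12 chemicals became 501 with the library score. Without the 0.4, 3.7, 11.1 and 33.3 µM doses they were 115, 100, 112 and 40. They were 333 without fludioxonil, 107 without triticonazole, 124 without PFOS, 299 without dimethenamid, 319 without PFOA and 121 without DEHP. Of single genes' values, 1099 kept their direction and side of the threshold, 446 lost the call, 13 gained it and 2 changed sign, both with carbaryl libraries alone: the trend of Nqo1 was then 0.10 and that of Hmox1 -0.07. Of list medians, 572 moved by less than the spread between DMSO libraries and 26 by more. The cause of these shifts was not tested. One library per dose and 3 DMSO libraries on the plate limit every test. No paired analysis was possible because carbaryl has 1 library per dose and shares no replicate numbers with DMSO.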
